A study of Macaca mulatta with 51 samples.

Results

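The nuclear-encoded genes of the mitochondrial respiratory chain were described in adipose tissue and skeletal muscle of obese rhesus macaques before, during and after treatment with FGF21. The genes were chosen by symbol alone, as those beginning with NDUFA, NDUFB, NDUFC, NDUFS or NDUFV and a number, with UQCR, COX4 to COX8 or ATP5, and CYC1. This took 78 of the 16033 genes with counts, of which 34 were placed in complex I, 9 in complex III, 18 in complex IV and 17 in complex V.

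The respiratory chain sits in the inner mitochondrial membrane. Complex I takes electrons from NADH, complex III passes them from ubiquinol to cytochrome c, complex IV hands them to oxygen, and complex V, the ATP synthase, uses the resulting proton gradient to make ATP. Most of the subunits are encoded in the nucleus, and several of complex IV exist as a general form and a second form restricted to muscle, lung or other tissues. Skeletal muscle is rich in mitochondria, whereas the white adipocyte holds few around its lipid droplet.

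The study took punch biopsies of subcutaneous abdominal adipose tissue (AT) and of gastrocnemius skeletal muscle (SM) from 10 rhesus macaques (Macaca mulatta) made obese on a high-fat, high-sucrose diet. The animals, 5 males and 5 ovariectomized females aged 11 to 22 years, had been on the diet for at least 2 years. They received native human FGF21, a hormone that acts on lipid metabolism and body weight, by daily injection for 12 weeks. The dose rose at first and was then held, at a lower level in a single animal than in the others. Biopsies were taken pre-treatment, post-treatment (at the end of the 12 weeks) and after 16 weeks of washout without the protein. Every animal was its own control and no untreated animal was followed alongside, so treatment and elapsed time cannot be told apart. The paper reports that the animals lost weight under treatment and regained it during washout. It states that direct effects of FGF21 cannot be separated from secondary responses to the weight loss. The same limit holds for the changes between time points given here, and body weight was not analysed.

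Counts were analysed for 27 AT libraries (10 pre-treatment, 9 post-treatment, 8 washout) and 21 SM libraries (6, 8 and 7), with totals of 14455195 to 23940980 counts. A further 3 labelled SM samples were not analysed here. Levels are given as CPM, which divide a gene's count by the scaled library total, with scaling within a tissue unless stated otherwise, and as lowest, median and highest library. They are not corrected for gene length, so levels of different genes are not compared. Differentially expressed (DE) between time points means a log2 fold change beyond 0.26 and, in edgeR's quasi-likelihood test with the animal in the model, an adjusted p below 0.05, with the adjustment over every gene tested.

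The tissues matched their labels, since the summed CPM of 12 skeletal muscle markers lay between 68.2 and 199 in AT and between 65264 and 325746 in SM. In SM, 3 post-treatment libraries (animals 21189, 21866 and 24849) held 65264, 118792 and 124819 CPM of these markers, against 146808 or more in the other 18, and SM results are therefore also given without them. Library identifiers fell into 3 number series whose meaning the labels do not give. In SM the post-treatment group held 5 libraries of the first and 3 of the last series and the washout group 6 of the last and 1 of the middle, so that series and time point were partly confounded there. The 3 of the last series are the 3 libraries low in markers. Without them post-treatment and washout in SM share no series, so series and time point cannot be told apart in that comparison.

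Of the 78 genes, 75 were tested in AT and 74 in SM. The read-through entry NDUFC2-KCTD14 had 0 counts in every library. COX6B2, the testis form of subunit 6B, had 11 counts over 8 libraries. COX7C, a subunit of complex IV in every tissue, was at 0.368 CPM or less in every library and was not tested either. COX7B2 passed the filter in AT but not in SM. Of the genes taken by symbol, 4 are not subunits by textbook knowledge, ATP5S, ATP5SL, the read-through entry and UQCRHL, a copy of UQCRH without introns. Reads of UQCRH and UQCRHL cannot be told apart with certainty. UQCRFS1, the Rieske protein of complex III, was not analysed here.

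Before treatment, the respiratory chain genes were much higher in SM than in AT, with exceptions in complex IV. With both tissues scaled together and a log2 limit of 1, 58 of the 75 genes tested were higher in SM (77.3%, against 19.9% of all genes) and 4 were lower (5.33%, against 31.4%). The median log2 difference was 1.52, against -0.16 over all genes. All 33 genes of complex I had a higher fitted level in SM and 28 passed, all 9 of complex III and 7 passed, and all 17 of complex V and 14 passed. Complex IV split, with 9 of its 16 genes called higher and 4 called lower in SM.

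The core subunits show the size of the common difference. NDUFS1, the largest iron-sulfur subunit of complex I, lay at 70.6, 91.0 and 102 CPM in AT (lowest, median and highest of 10) and at 130, 247 and 381 CPM in SM (of 6), a log2 difference of 1.47 (SE 0.25, adjusted p = 1.88e-06 in edgeR). The groups did not overlap. The log2 differences of the other core subunits were 1.297 for NDUFV1, which binds NADH, 1.98 for CYC1, cytochrome c1 of complex III, 1.72 for COX5A of complex IV, and 1.67 and 1.26 for ATP5A1 and ATP5B, the alpha and beta subunits of the ATP synthase. Among the other genes, NDUFS7, an iron-sulfur subunit of complex I next to the ubiquinone site, was 2.27 higher in SM on the log2 scale, and UQCRQ, a small accessory subunit, had the largest difference in complex III (2.26).

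The isoform pairs of complex IV went in opposite directions. COX6A2, the heart and skeletal muscle form of subunit 6A, was at 0, 0.132 and 0.258 CPM in AT and at 74.6, 128 and 530 CPM in SM. Summed over the libraries this was 33 counts in AT and 14290 in SM, a ratio of 1350.0 after scaling (exact 95% interval 961 to 1962, for counting error only), and the fitted log2 difference was 10.09 (SE 0.57). COX6A1, the general form, ran the other way, with 51.5, 93.0 and 105 CPM in AT and 6.14, 9.29 and 16.3 CPM in SM (log2 -3.09, SE 0.33, adjusted p = 1.31e-10 in edgeR). Neither gene's libraries overlapped between tissues, and the direction was the same in all 6 animals with both biopsies.

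Subunit 7A showed the same division with more overlap. COX7A1, the muscle and brown fat form, lay at 19.96, 35.3 and 42.2 CPM in AT and at 324, 443 and 876 CPM in SM (log2 4.05, SE 0.19), so it was detected well in AT. COX7A2, the general form, lay at 31.5, 41.3 and 50.3 CPM in AT and at 7.69, 11.97 and 41.7 CPM in SM (log2 -1.52, SE 0.29, adjusted p = 1.28e-05 in edgeR). The SM library of animal 20275 reached the AT range, and within the last identifier series alone COX7A2 was no longer called. COX7A2L, a relative that joins complexes III and IV into supercomplexes, was 0.53 lower in SM on the log2 scale and did not pass the limit of 1.

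Of the remaining pairs, those of NDUFA4 and COX7B were also split, with the first form called higher in SM and the second lower. NDUFA4, a subunit of complex IV despite its name, was 1.57 higher in SM, while its relative NDUFA4L2, known as a hypoxia-induced gene, was at 12.3, 18.4 and 29.8 CPM in AT and at 2.91, 3.82 and 6.31 CPM in SM (log2 -2.04, SE 0.26). COX4I1, the general form of subunit 4, was 1.23 higher in SM. COX4I2, the second form, known from lung and from the pericytes of small vessels, overlapped between AT (1.01, 3.95 and 5.70 CPM) and SM (1.42, 2.35 and 5.94 CPM), with a log2 difference of -0.24 (adjusted p = 0.483 in edgeR). COX7B was 2.13 higher in SM, whereas COX7B2 had 87 counts in AT and 2 in SM. The AT to SM ratio was 13.95 (exact 95% interval 3.75 to 117, for counting error only, without the spread between animals). COX7B2 was near the floor in AT too, with a median of 0.315 CPM. Animal 19832 stood highest there, above 0.556 CPM or less in the other AT libraries. Without 1 animal at a time the log2 difference of COX7B2 ran from -4.36 to -2.89. COX8A was 1.09 higher and COX6B1 0.99 higher, the latter just short of the limit. The 3 genes of the membrane ring subunit c encode the same mature protein and were all higher in SM, by 1.92 (ATP5G1), 1.88 (ATP5G2) and 0.95 (ATP5G3), of which ATP5G3 did not pass the limit.

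**Figure D1:**
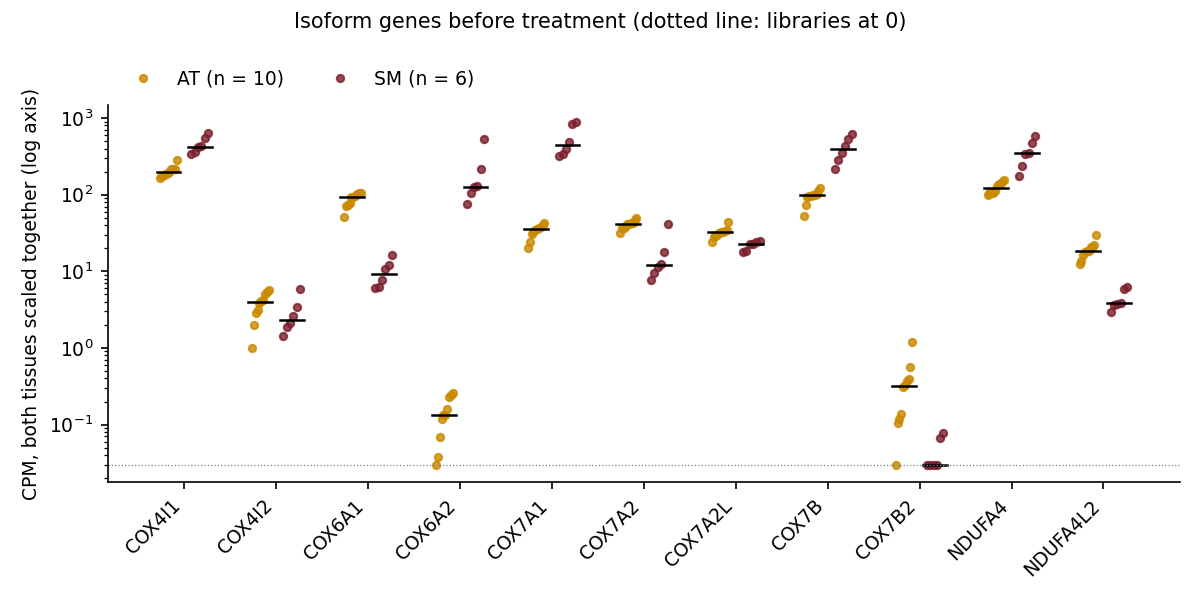
CPM before treatment on a log axis, with both tissues scaled together, for the isoform genes of complex IV. Each point is 1 library (AT n = 10, SM n = 6), black lines are medians and the dotted line holds libraries at 0. COX6A2 and COX7A1 stand higher in SM, COX6A1, COX7A2 and NDUFA4L2 higher in AT, and the COX4I2 points overlap.

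These tissue differences depend on how the tissues are scaled to each other. With library size alone the median of all genes moved from -0.16 to -0.90 and 26 members were called higher (34.7%, against 9.89% of all genes) and 5 lower (6.67%, against 46.8%), while the median of the members stayed 1.69 above that of all genes, against 1.68 with TMM scaling.

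In AT, the respiratory chain genes stood slightly lower post-treatment than pre-treatment as a group, and few of them changed singly. The test called 4 of 75 lower (5.33%, against 8.49% of all genes) and 0 higher (against 6.98%). The fitted change was below 0 for 65 of the 75, against 45.7% of all genes, and the median was -0.17, against 0.03. A p under 0.05 before adjustment was given to 25 of the 75 and to 4581 of all 13367 genes. The genes called were COX4I2 of complex IV, COX6B1, the subunit of complex IV that faces the intermembrane space, NDUFB4, an accessory subunit in the membrane arm of complex I, and NDUFS1.

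COX4I2 had the largest change. It lay at 1.29, 4.99 and 7.35 CPM pre-treatment (n = 10) and at 0.77, 2.53 and 4.81 CPM post-treatment (n = 9), and it was lower in 9 of 9 animals (log2 fold change -1.05, SE 0.21, adjusted p = 0.00455 in edgeR). At washout it was at 3.09, 5.35 and 12.2 CPM (n = 8), higher than post-treatment in 8 of 8 animals (log2 fold change 1.40, SE 0.21, adjusted p = 8.64e-05 in edgeR). The groups overlapped between time points. Washout and pre-treatment differed by 0.35 (adjusted p = 0.235 in edgeR). Both changes were also called within the last identifier series, at -1.26 and 1.28, and the fall missed the threshold only in the model without the animal.

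Markers of the cells of small vessels are given beside COX4I2. Of 8 pericyte and vascular smooth muscle markers, 5 had a fitted change below 0 and 3 above it in AT post-treatment (median -0.10). RGS5 alone was called, at -0.61 (adjusted p = 0.0367 in edgeR), which is 12.5% of the list, against 8.49% of all genes called lower. At washout 6 of the 8 were above post-treatment and 4 were called higher (50.0%, against 17.6% of all genes), with RGS5 at 0.66 (adjusted p = 0.0141 in edgeR). Of 7 endothelial markers, 3 were below and 4 above 0 post-treatment with 0 called by edgeR (median 0.00). At washout 6 were above post-treatment and 4 were called higher (57.1%, against 17.6% of all genes, median 0.49). The summed level of the pericyte and smooth muscle list ran from 565 to 1385 CPM pre-treatment, 465 to 957 CPM post-treatment and 546 to 2634 CPM at washout, with no marker at 0 in all libraries. Their part in the COX4I2 result was not tested. In bulk tissue fewer cells of a type and less RNA per cell cannot be told apart.

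**Figure D2:**
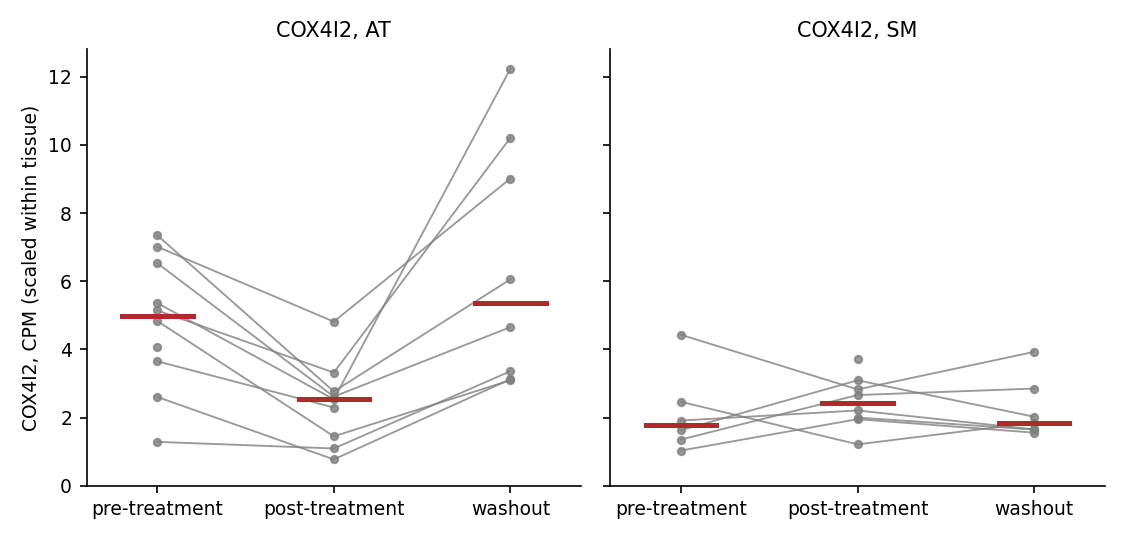
COX4I2 in CPM, scaled within tissue, at the 3 time points in AT (left) and SM (right). Grey points joined by lines are libraries of 1 animal and red bars are group medians. In AT the medians are 4.99, 2.53 and 5.35 CPM and every joined line falls to post-treatment and rises to washout, and in SM the medians are 1.77, 2.43 and 1.85 CPM.

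The other 3 genes called in AT changed less. NDUFB4 lay at 82.6, 107 and 136 CPM pre-treatment and at 62.4, 77.6 and 108 CPM post-treatment, lower in 8 of 9 animals (log2 fold change -0.44, SE 0.10, adjusted p = 0.0117 in edgeR). COX6B1 went from 106, 147 and 229 CPM to 83.2, 112 and 169 CPM, lower in 9 of 9 animals (-0.38, SE 0.12, adjusted p = 0.0384 in edgeR). NDUFS1 went from 91.8, 116 and 130 CPM to 66.8, 87.0 and 128 CPM, lower in 8 of 9 animals (-0.33, SE 0.11, adjusted p = 0.0401 in edgeR). Pre-treatment and post-treatment libraries overlapped for each of the 3.

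By complex, the median log2 fold change post-treatment was -0.17 for complex I (31 of 33 below 0), -0.25 for complex III (9 of 9), -0.12 for complex IV (12 of 16) and -0.16 for complex V (13 of 17). The core subunits that were not called lay at -0.20 (NDUFV1), -0.20 (CYC1), -0.32 (COX5A), -0.23 (ATP5A1) and -0.26 (ATP5B), with adjusted p of 0.158, 0.141, 0.0575, 0.0916 and 0.053 in edgeR. The muscle form COX7A1 was at -0.19 and NDUFA4L2 at -0.27, neither called. The largest value above 0 among well-detected genes was that of ATP5E, the epsilon subunit of the ATP synthase, at 0.26 (adjusted p = 0.0594 in edgeR).

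The count in AT moved both ways when single animals were left out. It was 2 without animal 21189 or without animal 22130, 8 without animal 23004, and 1, COX4I2, within the last identifier series. The share of all genes called in these fits is not given here. Over the animals the median change of the members was below 0 in 7 of 9 and ran from -0.56 to 0.09. Other cell types moved over the same interval. All 14 macrophage markers had a fitted change above 0 (median 0.93, sums of 926 to 3755 CPM and then 1707 to 10294 CPM), with 6 called (42.9%, against 6.98% of all genes). All 5 adipocyte markers had a change below 0 (median -0.62, sums of 22164 to 48652 CPM and then 14371 to 35908 CPM), with 3 called (60.0%, against 8.49%). Of 7 brown adipocyte markers, COX7A1 and PPARGC1A among them, 6 were below 0 and 1 was called (14.3%, against 8.49% of all genes, median -0.58). The 3 erythroid markers tested were all below 0 with 0 called (median -1.13, sums of 326 to 10536 CPM and then 454 to 7641 CPM). Their part in the members' values was not tested.

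At washout some AT genes were higher again than post-treatment. The test called 7 of 75 genes higher than post-treatment (9.33%, against 17.6% of all genes) and 0 lower (against 17.8%), and 68 of 75 fitted values were above 0, with a median of 0.14 against -0.00 over all genes. Besides COX4I2 these were 4 genes of complex I, NDUFA3 at 0.40, NDUFB4 at 0.39, NDUFA6 at 0.34 and NDUFS8 at 0.33, the hinge protein UQCRH of complex III at 0.38 and the muscle form COX7A1 at 0.33. NDUFA3, NDUFB4 and NDUFA6 are accessory subunits, and NDUFS8 carries iron-sulfur clusters in the core.

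NDUFB4 lay at 76.3, 103 and 132 CPM (n = 8), higher in 6 of 8 animals (SE 0.11, adjusted p = 0.00866 in edgeR). COX7A1 lay at 25.7, 45.2 and 53.1 CPM pre-treatment, 27.4, 35.7 and 52.7 CPM post-treatment and 36.2, 45.3 and 54.3 CPM at washout, higher at washout in 7 of 8 animals (SE 0.13, adjusted p = 0.0437 in edgeR). UQCRH lay at 54.8, 74.8 and 92.6 CPM, then 41.0, 64.7 and 76.5 CPM, then 60.9, 77.6 and 91.8 CPM. All of these groups overlapped. The general forms COX7A2 (0.32, adjusted p = 0.0639 in edgeR) and COX6A1 (-0.07, adjusted p = 0.651 in edgeR) were not called.

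Between washout and pre-treatment 0 of 75 genes were DE in AT by edgeR, where 20.5% of all genes were. An unadjusted p under 0.05 was given to 3 of the 75 and to 4549 of all 13367 genes. DESeq2 also called 0 and voomWithQualityWeights called 1, with the share of all genes not given here. The median was -0.01, with 34 values above 0, which became 62 with library size alone. The lowest adjusted p was that of NDUFS1 (-0.27, adjusted p = 0.0825 in edgeR, and lower in 7 of 8 animals), at 70.9, 91.9 and 126 CPM at washout against 91.8, 116 and 130 CPM pre-treatment.

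The count at washout was 3 without animal 22130 or without animal 24849, 13 without animal 23004, 12 without animal 26292, and 1, COX4I2, within the last identifier series. Shares of all genes called in these fits are not given here. The 14 macrophage markers were all called lower at washout than post-treatment (against 17.8% of all genes, median -1.76), with sums of 647 to 3926 CPM at washout. Called higher were 17.6% of all genes. The 7 brown adipocyte markers, which include COX7A1 and PPARGC1A, were all above 0 and 3 were called (42.9%, median 0.43). Both COX7A1 and PPARGC1A are among the 3 and are also reported singly here. Of 7 endothelial markers, 6 were above 0 and 4 were called (57.1%, median 0.49). The 3 erythroid markers were above 0 and 2 were called (66.7%, median 1.59, sums of 457 to 11980 CPM at washout). Adipocyte markers had 1 called higher. The part of these cell types in the members' values was not tested.

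**Figure D3:**
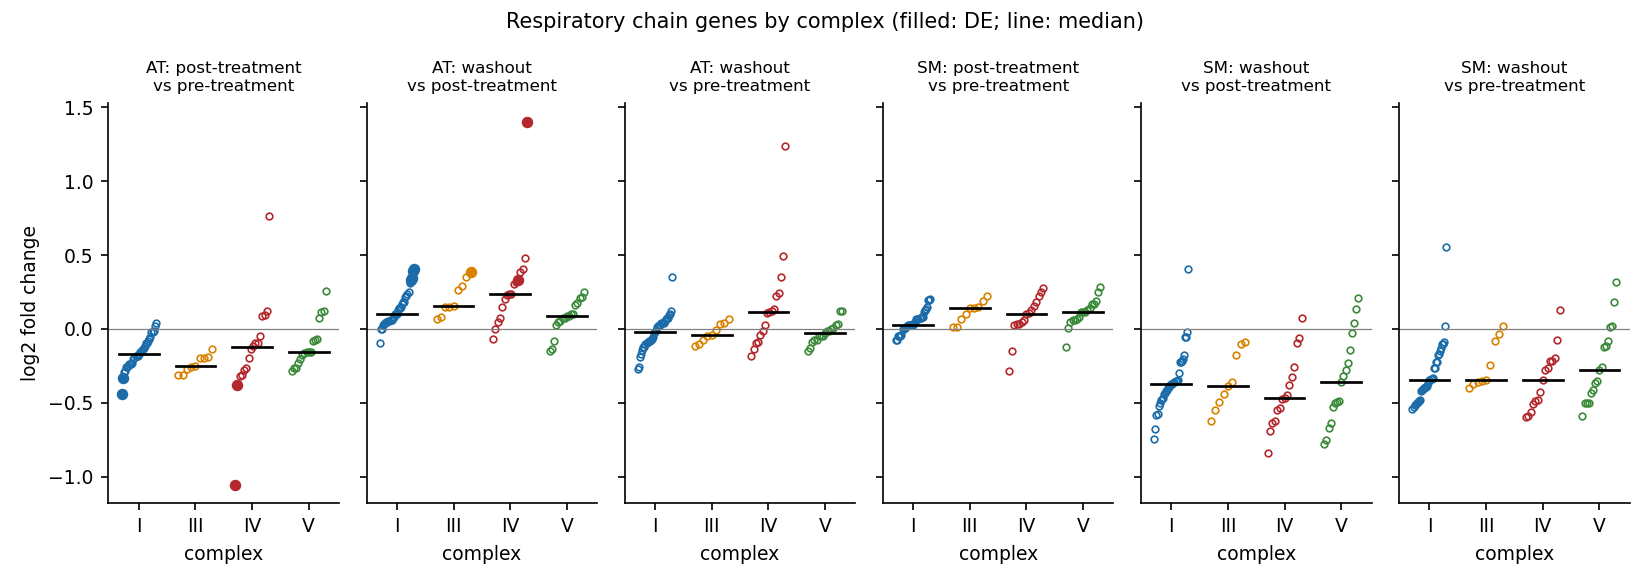
Log2 fold change of each respiratory chain gene by complex in the 6 comparisons of time points, 3 in AT and 3 in SM. Open points are genes that were not DE, filled points are DE genes and black lines are medians per complex. Filled points appear only in AT, and the SM medians at washout lie between -0.28 and -0.46.

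In SM, 0 of 74 genes were DE post-treatment against pre-treatment by edgeR, where 0% of all genes were, and DESeq2 and voomWithQualityWeights called 0 as well. A single gene, COX7A2L, had an unadjusted p under 0.05 (0.28, higher in 6 of 6 animals), against 410 of all 12617 genes. The fitted value was above 0 for 63 of 74, with a median of 0.07 against -0.02 over all genes and of 0.12 without the 3 libraries low in muscle markers. The animals did not share this direction, since the median change of the members ran from -0.49 to 0.62 and was below 0 in 3 of 6.

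At washout, SM values were lower than post-treatment for nearly all respiratory chain genes, but none passed. edgeR called 0 of 74 (against 0.19% of all genes) and voomWithQualityWeights called 0. DESeq2 called 7, all lower, and the share of all genes that DESeq2 called is not given here. The fitted value was below 0 for 69 of 74, against 53.6% of all genes, and the median was -0.39, against -0.03. A p under 0.05 before adjustment was given to 43 of the 74 and to 2181 of all 12617 genes. The medians were -0.37 for complex I, -0.39 for complex III, -0.46 for complex IV and -0.36 for complex V. In 6 of 7 animals the median change of the members was below 0, and it ran from -0.95 to 0.10.

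The lowest values, listed after they were seen, were those of COX7A2 (-0.84), ATP5E (-0.78), ATP5I (-0.75), a small membrane subunit of the ATP synthase, NDUFA1 (-0.74), a small membrane subunit of complex I, and COX7B (-0.69). ATP5E lay at 154, 242 and 319 CPM post-treatment and at 94.2, 150 and 158 CPM at washout, lower in 7 of 7 animals (SE 0.18, adjusted p = 0.0986 in edgeR). COX7A2L lay at 16.4, 19.998 and 23.3 CPM post-treatment and at 12.002, 14.4 and 15.9 CPM at washout, with no overlap and a lower value in 7 of 7 animals (-0.47, SE 0.11, adjusted p = 0.0964 in edgeR). The muscle form COX7A1 lay at 285, 430 and 572 CPM post-treatment and at 184, 262 and 424 CPM at washout (-0.64, SE 0.22, adjusted p = 0.178 in edgeR).

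Of the 6 core subunits described here, NDUFS1 had the highest value of all 74, 0.41 (adjusted p = 0.52 in edgeR), and the others were at -0.02 (NDUFV1), -0.18 (CYC1), -0.26 (COX5A), -0.03 (ATP5A1) and 0.04 (ATP5B). These values moved when the 3 post-treatment libraries low in muscle markers were left out, which held CYC1 at 160, 179 and 182 CPM against 315 to 474 CPM in the other 5. Without them NDUFS1 was at 0.03, NDUFV1 at -0.29, CYC1 at -0.45, COX5A at -0.32, ATP5A1 at -0.32 and ATP5B at -0.25, beside a median of -0.40 over the members. NDUFS3, a further core subunit of complex I, named after its values were seen, was at -0.43 with and without these libraries. The muscle form COX6A2 was at 0.08, with 41.7, 107 and 186 CPM post-treatment and 55.8, 126 and 215 CPM at washout. COX4I2, which changed in AT, was at 0.22 post-treatment against pre-treatment and at -0.10 at washout against post-treatment in SM.

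Against pre-treatment, SM at washout had 0 of 74 genes called by edgeR (against 0.0634% of all genes), 0 by DESeq2 and 0 by voomWithQualityWeights. The fitted value was below 0 for 66 of 74, against 56.4% of all genes, and the median was -0.35 against -0.05 over all genes. An unadjusted p under 0.05 was given to 28 of the 74 and to 1691 of all 12617 genes. COX6C, a small subunit of complex IV, was lowest (-0.60, adjusted p = 0.247 in edgeR) and NDUFS1 highest (0.56, adjusted p = 0.465 in edgeR). The median change of the members was below 0 in 4 of 6 animals.

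The 3 post-treatment SM libraries low in muscle markers stood apart in some of these genes. They held COX6A1 at 14.8 to 17.2 CPM, against 2.33 to 11.8 CPM in the other 18 SM libraries, and NDUFS1 at 63.5, 64.7 and 123 CPM, against 209 to 371 CPM in the other 5 post-treatment libraries. Without them the medians in SM were -0.40 at washout against post-treatment and -0.31 against pre-treatment, still with 0 genes called by edgeR. Post-treatment and washout then share no identifier series, so the first of these medians does not separate series from time point. Over all SM libraries, the 5 adipocyte markers had a median of -1.13 at washout against post-treatment, with 0 called and sums of 120 to 1608 CPM and then 68.5 to 602 CPM. Of 8 slow fiber markers, 7 were above 0 post-treatment (median 0.47), 4 at washout against post-treatment (0.08) and 8 against pre-treatment (0.61). Their sums ran from 62.0 to 9466 CPM pre-treatment, 428 to 32219 CPM post-treatment and 2615 to 27378 CPM at washout. Of 12 fast fiber markers, 1, 7 and 4 were above 0 in the same comparisons (medians -0.17, 0.08 and -0.20). None of either fiber list was called, and the part of these markers in the members' values was not tested.

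The identifier series moved the SM calls. With the series as a covariate, 22 members were called lower (29.7%, against 9.57% of all genes) and 2 higher (2.70%, against 11.4%) at washout than post-treatment, and 18 lower (24.3%, against 5.09%) and 1 higher (1.35%, against 5.65%) than pre-treatment. The SM fit within the last series left the animal out of the model, and its post-treatment group is these same 3 libraries. At washout it called 13 lower (17.6%, against 20.1% of all genes) and 9 higher (12.2%, against 15.8%) than post-treatment, and 19 lower (25.7%, against 2.47%) than the 2 pre-treatment libraries. The part of the series in the SM values was not tested beyond this.

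**Figure D4:**
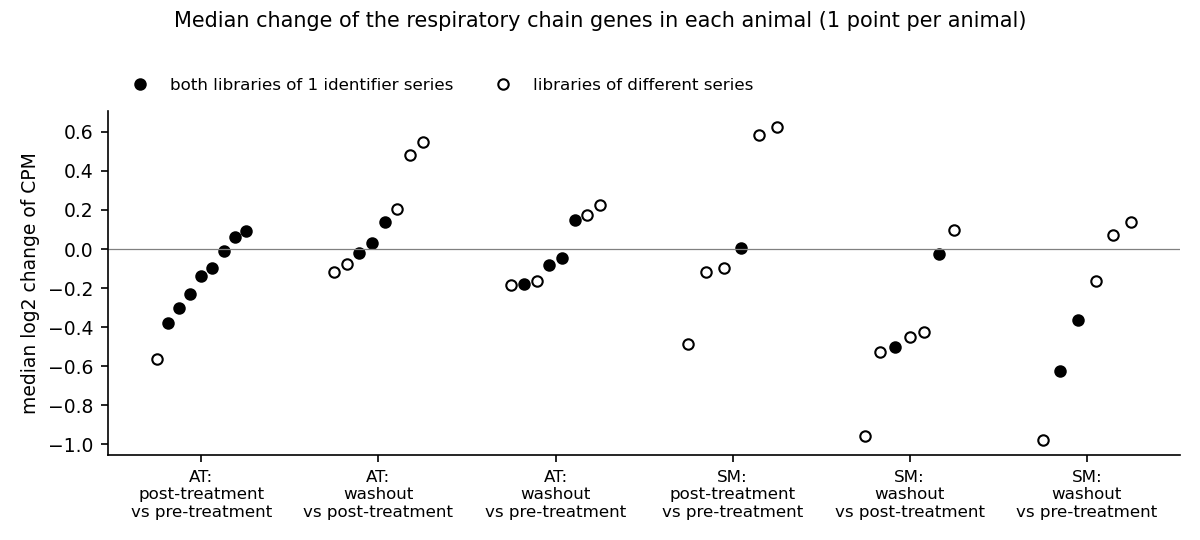
Median log2 change of CPM over the respiratory chain genes in each animal, for the 6 comparisons of time points. Filled points are animals whose libraries carry identifiers of 1 series and open points those with libraries of different series. AT post-treatment values lie below 0 in 7 of 9 animals and SM washout values below post-treatment in 6 of 7.

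The changes were then compared between the tissues by the test of the difference itself, as the SM change minus the AT change. From pre-treatment to post-treatment no member differed in edgeR, with 0 of 74 called (against 0.0487% of all genes). DESeq2 called 1 and voomWithQualityWeights 0, with the share of all genes not given here. The difference was above 0 for 70 of 74, against 51.0% of all genes, with a median of 0.30 against 0.01. An unadjusted p under 0.05 was given to 7 of the 74 and to 1306 of all 12322 genes. COX4I2 had the largest, 1.34 (SE 0.33, adjusted p = 0.107 in edgeR).

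From post-treatment to washout the change in SM was more negative than in AT for 35 of 74 genes (47.3%, against 11.9% of all genes) and for 0 it was more positive, with a median difference of -0.52 against -0.03 over all genes. The 35 were 14 genes of complex I, 5 of complex III, 8 of complex IV and 8 of complex V. They included both forms of subunit 7A, COX7A1 at -0.96 and COX7A2 at -1.14, as well as COX4I2 at -1.51, NDUFA3 at -1.07, UQCRH at -0.99, COX7B at -0.82, NDUFA4 at -0.77, NDUFA6 at -0.74, COX6B1 at -0.69, NDUFB4 at -0.67, COX7A2L at -0.66 and ATP5G1 at -0.60. COX7A2L had the smallest error of these (SE 0.14, adjusted p = 0.00138 in edgeR). The core subunits NDUFS1 (0.37), NDUFV1 (-0.09), CYC1 (-0.24), COX5A (-0.47), ATP5A1 (-0.19) and ATP5B (-0.16) were not called, nor were COX6A1 (-0.44) and COX6A2 (-0.18). Without the 3 SM libraries low in muscle markers the core values were 0.03, -0.32, -0.49, -0.50, -0.45 and -0.41 in the same order, again not called.

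COX4I2 was at 1.40 in AT and -0.10 in SM, whereas COX7A2 was at 0.32 in AT and -0.84 in SM and NDUFA3 at 0.40 and -0.68. The count was 20 (27.0%, against 8.27% of all genes) without the 3 SM libraries low in muscle markers, where COX7A2 (adjusted p = 0.101) and COX7B (adjusted p = 0.196 in edgeR) were lost. It was 21 without animal 22130, where the share of all genes called is not given here. Without those 3 libraries post-treatment and washout in SM share no identifier series, so the count of 20 does not separate series from time point.

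**Figure D5:**
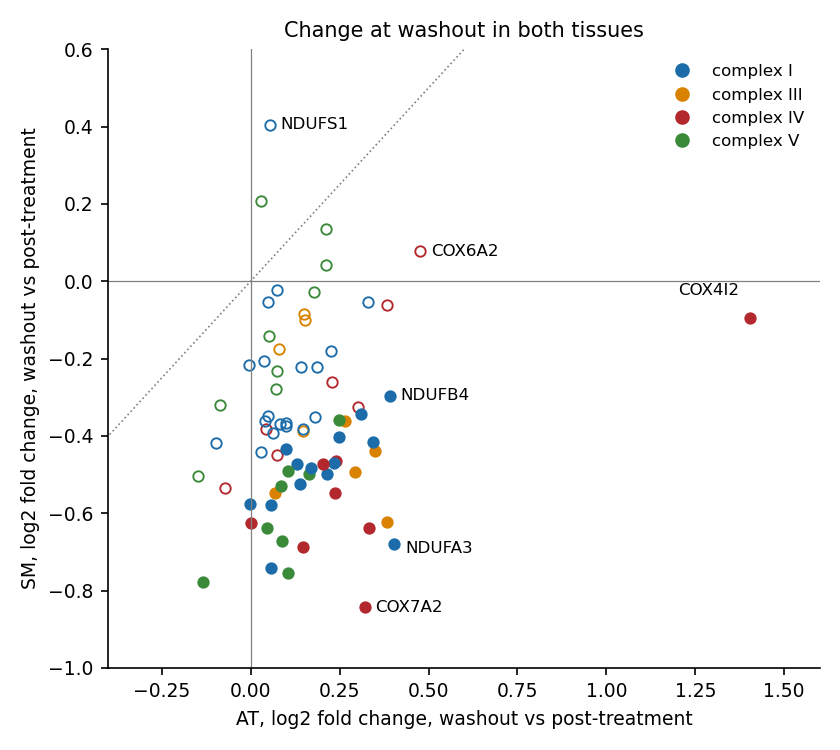
Log2 fold change at washout against post-treatment in AT (horizontal) and SM (vertical), 1 point per respiratory chain gene, coloured by complex. Filled points are genes whose change differed between the tissues and the dotted line marks equal changes. COX4I2 stands far to the right at 1.40 in AT, NDUFS1 lies highest in SM at 0.41, and the filled points lie below the line.

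From pre-treatment to washout 5 genes differed (6.76%, against 9.13% of all genes), all more negative in SM. They were NDUFA3 (-0.77, SE 0.26, adjusted p = 0.0389), COX7B (-0.73, SE 0.26, adjusted p = 0.0489 in edgeR), COX6C (-0.65), ATP5E (-0.65) and NDUFB9 (-0.57), with a median over all 74 members of -0.23. For the counts without 1 animal the share of all genes called is not given here. The count was 0 without animal 19832 or without animal 20275, 1 without animal 22130 and 2 without animal 23004. It was 3 without animal 21866 and 9 without animal 24849. Without the 3 SM libraries low in muscle markers it was 8, with 7 more negative in SM (9.46%, against 11.2% of all genes), and NDUFS1 at 0.96 (adjusted p = 0.00835 in edgeR) was more positive.

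Other genes of the pathway were counted over lists taken from general knowledge. Of 50 assembly factors, which insert cofactors and join subunits, 4 were called lower in AT post-treatment (8.0%, against 8.49% of all genes) and 8 higher at washout than post-treatment (16%, against 17.6%), 0 were called in SM, and 27 were higher (54.0%, against 19.9%) and 1 lower in SM than in AT before treatment. Their medians were -0.06 and 0.10 in AT and -0.18 in SM at washout against post-treatment. The SM change from post-treatment to washout was more negative than that in AT for 14 (28.0%, against 11.9% of all genes) and more positive for 0. Of 8 genes of complex II, the electron carriers and subunits with other symbols, 0 were called at either step in AT. Between washout and pre-treatment 1 was lower (12.5%, against 7.96% of all genes). All 8 were higher in SM than in AT before treatment (against 19.9% of all genes, median 1.59). For 3 the SM change from post-treatment to washout was more negative than that in AT (37.5%, against 11.9%), and for 0 more positive.

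Of 10 genes of the outer membrane and matrix used as markers of mitochondrial content, all had a fitted value below 0 in AT post-treatment and 4 were called (40.0%, against 8.49% of all genes, median -0.24), and 2 were called higher at washout (20%, against 17.6%). In SM their median at washout against post-treatment was -0.11, with 0 called. The SM change in that step was more negative than that in AT for 1 (10.0%, against 11.9% of all genes) and more positive for 0. Subunits encoded in the mitochondrial genome were not analysed here.

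Of 17 regulators of mitochondrial biogenesis, 1 was called higher in AT post-treatment (5.88%, against 6.98% of all genes), 3 higher (17.6%, against 17.6%) and 2 lower (11.8%, against 17.8%) at washout than post-treatment, and 0 in SM. PPARGC1A, the coactivator that drives respiratory chain genes, was at -0.79 in AT post-treatment (adjusted p = 0.0668 in edgeR) and rose at washout by 1.02 (SE 0.30, adjusted p = 0.0134 in edgeR), whereas in SM it was at 0.17 and 0.33 and was not called. GABPA, a factor that binds many subunit promoters, fell in AT at washout by 0.32 (adjusted p = 0.0196 in edgeR). NRF1, a further such factor, was 0.29 higher in AT at washout than pre-treatment (adjusted p = 0.0298 in edgeR). ESRRA, a nuclear receptor partner of PPARGC1A, and TFAM, which packages the mitochondrial genome, were not called at any step in either tissue. Before treatment PPARGC1A (3.37), ESRRA (2.07) and NRF1 (1.40) were called higher in SM than in AT, whereas TFAM (0.88) and GABPA (-0.62) did not pass the limit.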

How the data were processed

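RNA was sequenced by the study as stranded, polyA-selected, paired-end 50 nucleotide libraries and aligned with STAR to the MacaM rhesus genome. The authors deposited whole-number counts per gene, without normalization. After 70 repeat entries were dropped, 16033 genes in 48 libraries remained. The 3 SM samples not analysed here were pre-treatment of animals 20456 and 21866 and washout of animal 21866.

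Genes with at least 0.5 CPM in 10% of the libraries of a fit were tested with edgeR 4.0.16 in R 4.3.3 (TMM scaling, robust quasi-likelihood test, Benjamini-Hochberg adjustment over all genes tested). Time point and animal were modelled over the 3 time points of a tissue, group and animal over both tissues, and, for the difference of changes, time point and animal within tissue. The fits were tested on simulated data. Reads of overlapping or duplicated genes may be split by the authors' counting, and at these depths the spread between animals rather than counting error limits the precision of all but the lowest genes.

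Same-numbered libraries come from 1 animal by the labels. Over the members, libraries of 1 animal correlated at a median r of 0.294 in AT (25 pairs) and 0.237 in SM (19 pairs) after removal of time point means, against -0.059 and -0.0317 for different animals, so the animal was kept as a block.

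Genes given with full values were the isoform sets, the largest DE changes per comparison and 1 or 2 core subunits per complex. Of these, 1 is not reported here. The genes, this rule, the pathway and the marker lists were chosen with earlier results of these data known. Alternatives were DESeq2 1.42.0, voomWithQualityWeights of limma 3.58.1, other filters, scaling, blocks and samples. Leaving out SM libraries low in muscle markers (sum under 0.5 of the SM median) and using only the last identifier series were chosen after seeing the data. The last-series fit in SM did not model the animal, unlike that in AT.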

Additional observations from a re-analysis of the deposited data

Results flagged for a closer look

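Single libraries were looked at in 159 sets of 1 named gene in 1 group, and 6 held a library far from the others by Dixon's test at its 95% level, which chance alone gives in about 1 set in 20. In AT pre-treatment, COX5A was at 185 CPM in animal 20456 (the others 93.9 to 125), COX8A at 79.1 CPM in animal 20275 (136 to 214) and NDUFA6 at 28.8 CPM in animal 21866 (39.0 to 52.6). In AT post-treatment, COX4I1 was at 162 CPM in animal 22130 (225 to 313). In AT at washout, the muscle form COX6A2 was at 3.02 CPM in animal 23004, against 0.0484 to 0.501 CPM in the other 7 libraries. In SM at washout, NDUFA3 was at 5.92 CPM in animal 22130 (8.98 to 12.1).

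The changes that differed between AT and SM by the test of the difference itself came from the 2 comparisons with washout. From post-treatment to washout 35 members were called, with SM minus AT differences on the log2 scale of -1.51 for COX4I2, -1.14 for COX7A2, -1.07 for NDUFA3, -0.986 for UQCRH, -0.956 for COX7A1, -0.816 for COX7B, -0.769 for NDUFA4, -0.74 for NDUFA6, -0.688 for COX6B1, -0.672 for NDUFB4, -0.661 for COX7A2L and -0.599 for ATP5G1. From pre-treatment to washout 5 members were called, among them NDUFA3 at -0.773 and COX7B at -0.733.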

How the results depend on the processing

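The values below are counts of called members under alternatives that moved a count by over 1.5 times, and the cause was not tested. Here, and for the counts without 1 animal above, the share of all genes called in the same fit is not given. The counts alone therefore do not tell a move of the members from a move of all genes. AT post-treatment against pre-treatment (4 as reported) gave 11 with DESeq2, 10 with a minimum of 10 counts in every library, 1 within the last identifier series and 2 to 8 without 1 animal. AT washout against post-treatment (7) gave 25 with library size alone, 2 from the 2 time points alone, 2 with the series as covariate, 1 within the last series and 3 to 13 without 1 animal. AT washout against pre-treatment (0) gave 1 with voomWithQualityWeights, 2 with library size alone, 1 from the 2 time points alone and 1 with the series as covariate. SM washout against post-treatment (0) gave 7 with DESeq2, 24 with the series as covariate and 22 within the last series without the animal in the model. SM washout against pre-treatment (0) gave 19 with the covariate and 19 within the last series, again without the animal in the model. SM against AT (62) gave 31 with library size alone and 59 to 68 without 1 animal. The difference between tissues gave 1 with DESeq2 post-treatment (0). At washout against post-treatment (35) it gave 60 with library size alone, 20 without the SM libraries low in muscle markers and 21 to 38 without 1 animal. Library size alone moved the median of all genes there from -0.03 to -0.25, and the members' median less that median was -0.49 both ways. At washout against pre-treatment (5) it gave 8 with voomWithQualityWeights, 31 with library size alone, 15 with the covariate, 8 without the low libraries and 0 to 9 without 1 animal. There library size alone moved the median of all genes from 0.01 to -0.23, and the members' median less that median from -0.23 to -0.25.

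In the fit with no replicate block the counts were 1 and 4 for the first 2 comparisons in AT, 2 for SM washout against post-treatment, and 22 and 3 for the differences between tissues at washout against post-treatment and pre-treatment, and the pairing changed no other count by over 1.5 times. SM post-treatment against pre-treatment gave 0 under every alternative run. No called member reversed its direction under any alternative run.

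COX4I2 was called in 20 of 21 alternatives post-treatment and 21 of 21 at washout in AT, and NDUFB4 in 20 of 21 both times, missing within the last series. The other called genes of AT were kept in 7 of 21 (NDUFA3) to 18 of 21 (NDUFA6). Library size alone moved the median of all genes by over 0.1 in 5 of the comparisons, and the members were read against that median.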
